A study of Homo sapiens with 2 samples.

Results

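The expression of 10 genes of the tumor necrosis factor (TNF) superfamily was examined in U87 cells, a long-established line of human glioblastoma, treated over 72 h with CCA-1.1 or its solvent DMSO. The genes comprise 3 ligands (TNF, TNFSF9 and TNFSF10) and 7 receptors (TNFRSF1A, TNFRSF1B, TNFRSF10D, TNFRSF11B, TNFRSF12A, TNFRSF21 and LTBR). They were taken by name from 41578 genes with a summed value, and all 10 matched. CCA-1.1 is a chemically made analog of curcumin, and its concentration in the sequenced culture is not given in the sources used here. Both cultures were U87 cells of wild-type label grown in RPMI with serum, and mRNA was sequenced from 1 library of each. Each value below is therefore a single measurement. No difference has a replicate check, no error can be given, and no p-value was calculated. Values are in TPM (a scaled number of transcripts), which relates the reads of a transcript to its length and to the library total. Levels of different genes can be compared on this scale, but the read depth cannot be recovered from it, so counting errors are unknown.

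Ligands of the TNF superfamily are trimers that are held on the cell surface or released from it, and each binds 1 or a few receptors with cysteine-rich extracellular domains. Receptors with an intracellular death domain can recruit adaptors such as TRADD and FADD and, through them, caspases. Receptors without one bind TRAF proteins and signal mainly to NF-kB and MAP kinases, and decoy receptors bind ligand without passing on a death signal. In glioblastoma, TRAIL (encoded by TNFSF10) and its receptors have been studied as a route to apoptosis, and TNFRSF12A is known for its part in migration and invasion.

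The labelled cell type was compared with marker genes. VIM and CD44, which mark mesenchymal glioblastoma cells, were at 3216.8 and 607.4 TPM in the DMSO library and at 3106.3 and 472.6 TPM after CCA-1.1. In the same marker set, FN1 was at 11240.6 TPM and 9087.7 TPM and TNC at 162.7 TPM and 96.7 TPM. The neural stem marker NES of that set was far lower, at 7.53 TPM and 7.62 TPM. The astrocyte markers were low or absent, with GFAP at 0.41 TPM and 0.57 TPM and S100B listed at 0 in both libraries. AQP4 was listed at 0 with DMSO and at 0.02 TPM with CCA-1.1. The glioma lineage markers SOX2 and OLIG2 were at 1.87 and 5.64 TPM with DMSO and at 1.45 and 7.03 TPM with CCA-1.1. Of 6 leukocyte markers, AIF1 and CD3E were listed at 0 and PTPRC was at 0.09 TPM and 0.07 TPM. The sum of the 6 was 496.2 TPM with DMSO and 399.6 TPM with CCA-1.1, nearly all of it CD68, a lysosomal gene that is not particular to leukocytes. Summed levels were 4.04 TPM and 3.26 TPM for 4 endothelial markers, 49.0 TPM and 47.5 TPM for 4 neuronal markers, and 1.30 TPM and 2.05 TPM for 3 oligodendrocyte markers.

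The receptor TNFRSF12A (Fn14), which binds TWEAK, was the highest of the 10 genes in both libraries, and the ligand TNF was the lowest. TNFRSF12A was at 317.9 TPM with DMSO and 318.3 TPM with CCA-1.1. TNFSF9, TNFRSF21, TNFRSF10D, TNFRSF11B and TNFRSF1A followed between 84.5 and 120.8 TPM in the DMSO library, and these 5 genes lay between 59.9 and 119.0 TPM after CCA-1.1. TNFRSF1B, LTBR, TNFSF10 and TNF were each below 10 TPM in both libraries. The order was the same in both libraries except among the middle genes. TNFRSF21 ranked above TNFRSF10D, and TNFRSF11B above TNFRSF1A, in DMSO only. With 1 library each, none of these neighbours can be set apart beyond a replicate spread.

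**Figure D1:**
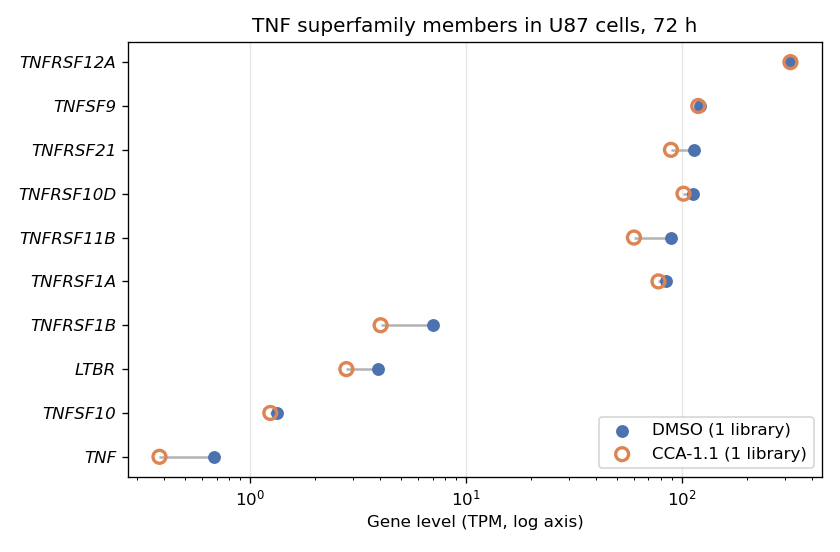
Gene level of the 10 TNF superfamily genes in TPM on a log axis, with 1 filled point for the DMSO library and 1 open point for the CCA-1.1 library. TNFRSF12A lies near 318 TPM in both libraries, whereas TNFRSF1B, TNFRSF11B, TNFRSF21 and LTBR lie visibly lower in the CCA-1.1 library, as does TNF at under 1 TPM.

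Each difference is the log2 ratio of the CCA-1.1 value to the DMSO value after 1 TPM is added to both, which makes the difference of weakly expressed genes look smaller than it is. A negative difference means a lower level in the CCA-1.1 library. The 10 genes all stayed within 2-fold, a limit that 3.56% of the 15482 genes averaging at least 1 TPM passed in either direction. TNF averaged under 1 TPM and is not among the 15482 genes. Of the other 9 genes, 8 had a difference below 0, against 43.8% of the 15482 genes, and 4 were lower by more than 0.3, against 7.66%. These 4 were TNFRSF1B, TNFRSF11B, LTBR and TNFRSF21, all receptors. None was higher by more than 0.3, a limit that 12.8% of the 15482 genes passed. The median difference was -0.14 over the 9 genes and -0.21 with TNF included, and over the 15482 genes it was 0.03, with 5th and 95th percentiles of -0.40 and 0.53. The genes had been chosen with earlier results of these data known, so these counts describe them and are no evidence about the superfamily. Fewer cells that express a gene and less RNA of it per cell cannot be told apart in such libraries.

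**Figure D2:**
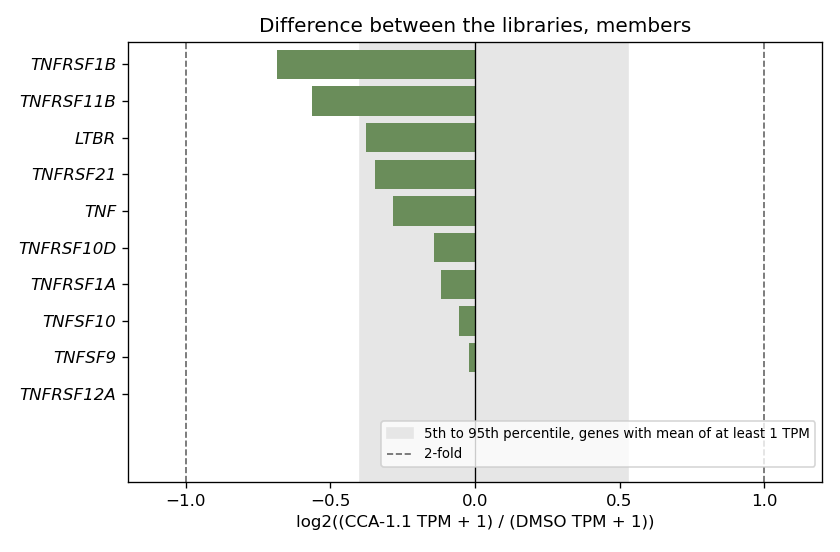
Difference of each of the 10 genes between the CCA-1.1 and DMSO libraries on the log2(TPM + 1) scale, with 1 bar per gene, grey shading from the 5th to the 95th percentile of 15482 genes and dashed lines at 2-fold. The bars of TNFRSF1B (-0.68) and TNFRSF11B (-0.56) reach past the shaded range, and no bar reaches 2-fold.

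Among the ligands, TNFSF9 was expressed at a high level and hardly differed. TNFSF9 (Entrez identifier 8744, chromosome 19 of GRCh38.p14, 6531026 to 6535924) encodes the ligand of TNFRSF9, a costimulatory receptor of T cells. It was at 120.8 TPM with DMSO and 119.0 TPM with CCA-1.1, a difference of -0.02. Its receptor TNFRSF9 was low, at 1.80 TPM and 1.30 TPM. TNFSF10 (Entrez 8743, chromosome 3, 172505508 to 172523430) encodes TRAIL, which triggers apoptosis through receptors with a death domain. Summed over its transcripts, TNFSF10 was at 1.33 TPM with DMSO and 1.24 TPM with CCA-1.1, a difference of -0.06. TNF itself (Entrez 7124, chromosome 6, 31575565 to 31578336), the founding inflammatory cytokine of the family, was at 0.68 TPM with DMSO and 0.38 TPM with CCA-1.1. The CCA-1.1 value was 0.56 times the DMSO value, which gives a log2 difference of -0.28. Of 4641 genes with a mean within 2-fold of that of TNF, 477 (10.3%) were lower by as much or more. The reads behind so low a level are not known.

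The receptors of TNF differed unequally. TNFRSF1A (Entrez 7132, chromosome 12, 6328771 to 6342076), the broadly expressed TNF receptor with a death domain, was at 84.5 TPM with DMSO and 77.9 TPM with CCA-1.1, a difference of -0.12. TNFRSF1B (Entrez 7133, chromosome 1, 12166991 to 12209220), the TNF receptor without a death domain, was at 7.06 TPM with DMSO and 4.02 TPM with CCA-1.1. The difference of -0.68 was the largest of the 10 genes with 1 TPM added, and the CCA-1.1 value was 0.57 times the DMSO value. Without an added value the ratio of TNF was slightly lower at 0.56, on levels under 1 TPM. Of 4316 genes with a mean within 2-fold of that of TNFRSF1B, 131 (3.04%) were lower by as much or more. The level of TNFRSF1A was 12.0 times that of TNFRSF1B in DMSO and 19.4 times in CCA-1.1. LTBR (Entrez 4055, chromosome 12, 6375160 to 6391566), which binds membrane lymphotoxin and activates the alternative NF-kB pathway, lies 33.1 kb from TNFRSF1A. It was at 3.92 TPM with DMSO and 2.79 TPM with CCA-1.1, a difference of -0.38. RefSeq gives 16 transcripts of LTBR, of which 2 are in the table, so reads particular to the others are not part of this level. Of 4093 genes with a mean within 2-fold of that of LTBR, 387 (9.46%) were lower by as much or more.

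TNFRSF21 was lower with CCA-1.1, and TNFRSF12A was nearly level. TNFRSF21 (Entrez 27242, chromosome 6, 47231532 to 47309905), also named death receptor DR6, carries a death domain and is known for roles in neurons and lymphocytes. It was at 113.2 TPM with DMSO and 89.0 TPM with CCA-1.1, a difference of -0.34. Of 2391 genes with a mean within 2-fold of it, 90 (3.76%) were lower by as much or more. TNFRSF12A (Entrez 51330, chromosome 16, 3020368 to 3022383) is a small receptor without a death domain. Its difference was 0.00, on levels of 317.9 TPM and 318.3 TPM. Its ligand gene TNFSF12 was at 32.5 TPM with DMSO and 26.8 TPM with CCA-1.1, so the receptor was 9.80 and 11.9 times as high as its ligand.

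Promoter sequences are shown for TNFRSF1B and TNFRSF21, which were lower by more than 0.3, and for the ligands TNFSF9 and TNFSF10, which were not. They are RefSeq sequences of GRCh38.p14 on the strand of the gene, with 250 bases before the start of transcription and 50 after it. RefSeq promoters were found for 7 of the 10 genes, the others being TNFRSF10D, TNFRSF11B and TNFRSF12A. Capitals mark the first transcribed base, matches to the interferon-response-like motif GAAANNGAA on either strand and the TATA box TATAAA. The TNFRSF1B promoter is chr1:12166741-12167040 (+), the TNFRSF21 promoter is chr6:47309856-47310155 (-), the TNFSF9 promoter is chr19:6530776-6531075 (+) and the TNFSF10 promoter is chr3:172523381-172523680 (-).
TNFRSF1B: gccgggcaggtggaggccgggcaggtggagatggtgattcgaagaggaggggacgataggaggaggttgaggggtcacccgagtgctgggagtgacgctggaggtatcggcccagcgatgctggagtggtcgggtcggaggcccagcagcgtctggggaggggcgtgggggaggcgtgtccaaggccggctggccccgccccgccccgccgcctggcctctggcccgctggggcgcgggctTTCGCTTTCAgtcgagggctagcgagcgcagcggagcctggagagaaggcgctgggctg
TNFRSF21: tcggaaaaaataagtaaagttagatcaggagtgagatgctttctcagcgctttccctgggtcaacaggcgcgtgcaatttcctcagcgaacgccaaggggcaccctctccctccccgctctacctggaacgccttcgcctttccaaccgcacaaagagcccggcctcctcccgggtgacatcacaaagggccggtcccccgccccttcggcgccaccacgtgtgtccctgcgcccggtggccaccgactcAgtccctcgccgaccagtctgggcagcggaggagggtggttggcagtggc
TNFSF9: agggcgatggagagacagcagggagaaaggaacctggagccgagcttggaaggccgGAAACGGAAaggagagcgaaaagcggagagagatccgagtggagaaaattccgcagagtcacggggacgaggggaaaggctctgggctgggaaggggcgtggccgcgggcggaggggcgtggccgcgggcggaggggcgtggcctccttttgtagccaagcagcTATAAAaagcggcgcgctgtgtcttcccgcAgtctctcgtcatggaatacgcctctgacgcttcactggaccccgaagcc
TNFSF10: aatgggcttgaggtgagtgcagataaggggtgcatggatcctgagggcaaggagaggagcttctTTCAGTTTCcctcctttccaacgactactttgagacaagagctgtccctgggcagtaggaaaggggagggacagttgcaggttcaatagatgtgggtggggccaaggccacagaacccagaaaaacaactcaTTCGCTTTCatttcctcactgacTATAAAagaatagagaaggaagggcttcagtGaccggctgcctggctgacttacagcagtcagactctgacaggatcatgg

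The motifs searched in the 7 promoters were an NF-kB-like GGNNNTTCC, an AP-1-like TGANTCA and the interferon-response-like motif, all on both strands, and TATAAA on the strand of the gene. The NF-kB-like and AP-1-like letters were in none of the 7, and were in 20.1% and 7.71% of 35116 RefSeq promoters of the same length. Sites of these factors spelled with other letters were not searched, so the 7 promoters may still hold some. The interferon-response-like letters were in 3 of the 7, against 8.11% of all promoters. TNFSF10 held 2 matches, beginning 186 and 54 bases before the start, TNFRSF1B held 1 that began 9 bases before it, and TNFSF9 held 1 that began 194 bases before it. TATAAA was in TNF, TNFSF9 and TNFSF10, at 29, 30 and 31 bases before the start, and in 7.33% of all promoters. It was in the promoters of all 3 ligands and in those of none of the 4 receptors searched. TATAAA was added after the other motifs had been fixed, so this split among 7 promoters is a description only. The promoter of TNFRSF1B was 72.0% G and C, that of TNFSF10 was 51.0%, and the median of all promoters was 58.7%. A match of letters is a description of these windows, and no binding was measured.

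TRAIL has receptors that signal death and receptors that act as decoys. In these libraries the summed decoys were lower with CCA-1.1, mostly through TNFRSF11B. The summed death receptors, nearly all TNFRSF10B, were nearly level. TNFRSF10D (Entrez 8793, chromosome 8, 23135588 to 23164027), a membrane decoy with a truncated death domain, was at 112.3 TPM with DMSO and 101.7 TPM with CCA-1.1, a difference of -0.14. TNFRSF11B (Entrez 4982, chromosome 8, 118923557 to 118951885) encodes osteoprotegerin, a secreted decoy that binds TRAIL and the bone cytokine RANKL. It was at 89.0 TPM with DMSO and 59.9 TPM with CCA-1.1, which was lower by 29.1 TPM, the largest gap in TPM among the 10 genes, and a difference of -0.56. Of 2952 genes with a mean within 2-fold of that of TNFRSF11B, 37 (1.25%) were lower by as much or more. The remaining TRAIL receptors were read for comparison. The death receptor TNFRSF10B was at 157.7 TPM and 161.3 TPM, a difference of 0.03. The death receptor TNFRSF10A was at 4.82 TPM and 3.99 TPM, a difference of -0.22, further below 0 than that of TNFRSF10D. The decoy TNFRSF10C was at 11.1 TPM and 11.0 TPM, a difference of -0.02. Summed, TNFRSF10C, TNFRSF10D and TNFRSF11B were at 212.4 TPM with DMSO and 172.6 TPM with CCA-1.1, and the death receptors were at 162.5 TPM and 165.3 TPM. The ratio of decoy to death receptor mRNA was 1.31 with DMSO and 1.04 with CCA-1.1. With the membrane decoys alone it was 0.76 and 0.68. The sums and ratios of these receptors were not among the comparisons planned beforehand. The TNFRSF10 genes are related in sequence, and reads that match several of them were divided by estimation, so their single levels are less certain than their sum.

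**Figure D3:**
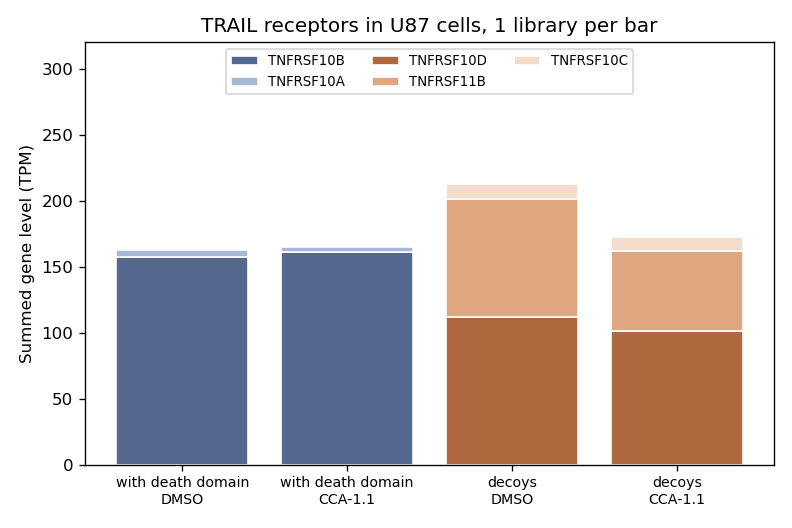
Summed level of the TRAIL receptors in TPM, with 1 bar per library for the receptors with a death domain (TNFRSF10A and TNFRSF10B) and for the decoys (TNFRSF10C, TNFRSF10D and TNFRSF11B). The death receptors stand at 162.5 and 165.3 TPM and the decoys at 212.4 TPM with DMSO and 172.6 TPM with CCA-1.1, with most of the gap in TNFRSF11B.

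The table holds 22 transcripts of the 10 genes, of which 12 averaged at least 1 TPM and 3 were at 0 in both libraries. No transcript differed by more than 2-fold on the log2(TPM + 1) scale, and 6 genes had a single transcript. A transcript under 1 TPM in both libraries cannot pass 2-fold on that scale, so this says nothing about the weakest ones. With nothing added some differed by more, such as NM_001346091.2 of TNFRSF1A, which was lower by more than 2-fold. The share past 2-fold over all transcripts was not counted. In TNFRSF1A, the transcript NM_001065.4 held 84.4% of the TPM of the gene in DMSO and 86.4% in CCA-1.1. The non-coding transcript NR_144351.2 was next, at 10.3 TPM and 9.30 TPM. The remaining TNFRSF1A transcripts were NM_001346091.2, at 1.46 TPM and 0.54 TPM, and NM_001346092.2, at 1.35 TPM and 0.78 TPM. In TNFRSF1B, the curated transcript NM_001066.3 was at 6.17 TPM with DMSO and 3.75 TPM with CCA-1.1, a difference of -0.59. It held 87.4% of the gene with DMSO and 93.3% with CCA-1.1, so this difference largely repeats that of the gene. The predicted TNFRSF1B transcript XM_011542063.3 was at 0.51 TPM in DMSO and was listed at 0 in CCA-1.1. In TNFSF10, the transcript NM_003810.4 was at 0.95 TPM with DMSO and 1.07 TPM with CCA-1.1, slightly higher, while NM_001190942.2 was at 0.25 TPM and 0.17 TPM. NM_003810.4 held 71.4% of TNFSF10 with DMSO and 86.3% with CCA-1.1, on a gene total of little over 1 TPM. Transcript values are estimates, since reads shared by transcripts of a gene are divided among them.

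**Figure D4:**
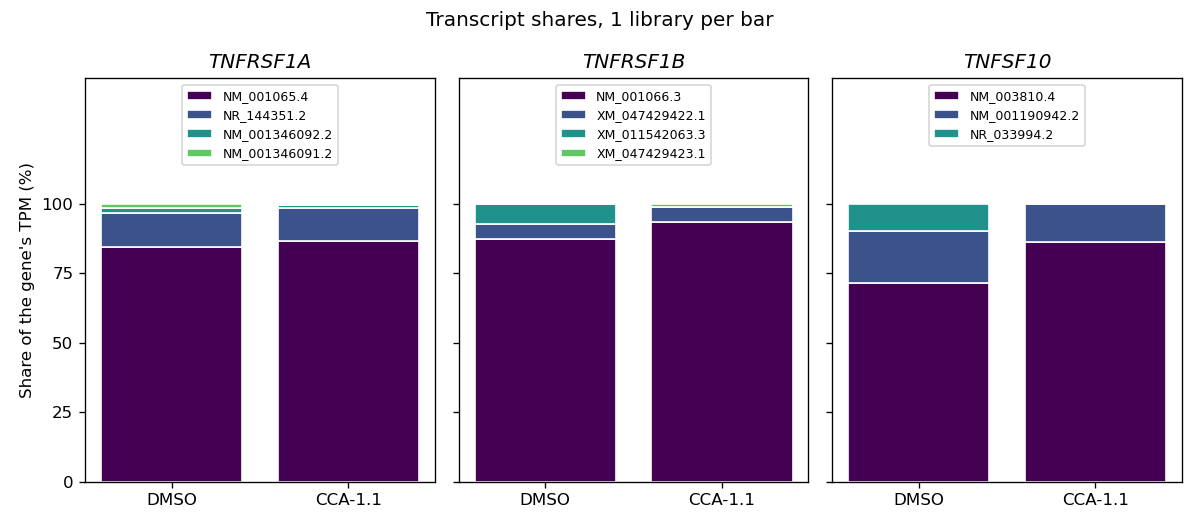
Share of each transcript in the TPM of its gene, in percent, for TNFRSF1A, TNFRSF1B and TNFSF10, with 1 stacked bar per library and transcripts at 0 in both libraries left out. A single transcript holds most of each gene in both libraries, with 84.4% and 86.4% for NM_001065.4 of TNFRSF1A.

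The rest of the superfamily was read from a list of 18 ligands and 29 receptors that includes the 10 genes. Of the 47 genes, 25 averaged at least 1 TPM and 4 were listed at 0 in both libraries. None of the 25 passed 2-fold, which for so few genes is near the 3.56% of all genes averaging at least 1 TPM. Of the 37 genes outside the 10, 16 averaged at least 1 TPM. Of these 16, 6 were below 0 and 10 above it, with a median of 0.03. None of them was lower by more than 0.3, against 7.66% of all genes, and 2 of the 16 were higher by more than 0.3, a share near the 12.8% of all genes. With log2 differences in parentheses, these were EDA2R, a receptor of an ectodysplasin form, at 11.9 TPM with DMSO and 17.8 TPM with CCA-1.1 (0.54), and TNFRSF14, the receptor of LIGHT, at 29.1 TPM and 42.3 TPM (0.52). RefSeq gives 25 transcripts of TNFRSF14, of which 13 have values, so reads particular to the others are not part of its level. The antisense gene TNFRSF14-AS1 overlaps TNFRSF14 and was at 2.07 TPM and 3.04 TPM, and whether strand was used in counting is not given in the sources used here. CD70, the ligand of CD27, a costimulatory receptor of T cells, was at 95.9 TPM and 88.9 TPM. FAS, the receptor of FASLG, was at 12.5 TPM and 10.3 TPM, TNFRSF25 was at 9.43 TPM and 10.7 TPM, and FASLG was listed at 0 in both libraries.

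The signalling partners of the receptors were read from 4 lists, with log2 differences in parentheses. Of all genes averaging at least 1 TPM, 3.56% passed 2-fold, 7.66% were lower by more than 0.3 and 12.8% were higher by more than 0.3. In lists this small, having no gene past 2-fold is near that share. Of 18 adaptors and ubiquitin ligases averaging at least 1 TPM, out of 19, none passed 2-fold and the median difference was 0.01. In this list BIRC3, a ubiquitin ligase of the TNF receptor complex, was at 9.64 TPM with DMSO and 12.6 TPM with CCA-1.1 (0.35), RIPK1, the kinase that joins that complex, was at 12.9 TPM and 9.96 TPM (-0.34), and SHARPIN had the highest level at 109.4 TPM and 109.3 TPM. Of 12 kinases out of 13, none passed 2-fold and the median was 0.10. IKBKB, a kinase that releases NF-kB, was at 20.5 TPM and 25.7 TPM (0.31), and TAB2 was the highest at 180.1 TPM and 177.1 TPM. Of 7 genes of the death pathway out of 8, none passed 2-fold or differed by more than 0.3, the median was 0.00, and DAP3 was the highest at 189.9 TPM and 189.4 TPM. Of the 6 genes for the release of ligands and receptors, none passed 2-fold, the median was -0.14, and TIMP3, an inhibitor of the sheddase ADAM17, was at 321.4 TPM with DMSO and 228.4 TPM with CCA-1.1 (-0.49).

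The largest differences among the listed genes averaging at least 1 TPM were those of genes that TNF is known to induce. Of 26 such genes, 21 averaged at least 1 TPM. Of these, 3 were lower by more than 2-fold and none was higher. Among the 15482 genes, 258 were lower by more than 2-fold and 293 were higher, together 3.56%. Lower by more than 0.3 were 10 of the 21, against 7.66% of all genes, and the median was -0.26, against 0.03. The other 11 differed by 0.3 or less. Below 0 were 14 of the 21, against 43.8% of all genes, and 7 were above 0, the highest at 0.21. With log2 differences again in parentheses, the chemokine CCL5 was at 56.4 TPM with DMSO and 20.7 TPM with CCA-1.1 (-1.41), CXCL8 was at 73.2 TPM and 29.6 TPM (-1.28), and the cytokine IL6 was at 11.1 TPM and 4.92 TPM (-1.03). IL1B was at 74.6 TPM and 44.2 TPM (-0.74), CXCL2 was at 47.6 TPM and 32.7 TPM (-0.53), and CCL2 was at 37.6 TPM and 26.1 TPM (-0.51). IER3, the gene of the list with the highest mean, was at 1895.2 TPM and 1965.0 TPM (0.05), and SOD2, which was above it in the DMSO library, was at 2158.0 TPM and 1652.0 TPM (-0.39). TNF itself was under 1 TPM in both libraries, and its part in these differences was not tested. This list was also written with earlier results of these data known, so it is no independent evidence of a direction.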

How the data were processed

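mRNA of U87 cells was sequenced from 1 library per condition. The authors checked reads with FastQC (0.11.9) and MultiQC (1.1) and quantified transcripts by pseudo-alignment with Kallisto against GRCh38.p14. The deposited values are TPM with 2 decimals for 177816 transcripts. Of these, 169960 were matched to gene symbols with the RefSeq gene table of GRCh38.p14, ignoring versions, and TPM was summed per gene. Differences are log2 ratios after adding 1 TPM. TPM keeps no depth, so counts could not be tested, and neither p-values nor intervals nor limits for a value of 0 are given. Differences were counted past 2-fold or past 0.3 (log2), beside 15482 genes averaging at least 1 TPM. The members and lists were chosen with earlier results of these data known. All members were named, together with superfamily genes at a mean of at least 10 TPM, and, of the other lists, genes past 0.3 (at most 6) and the highest gene. FASLG, TNFRSF9, TNFRSF10A, PTPRC, SOD2 and similar partners and markers were added to the text once their values were known. TATAAA was also added to the fixed motifs afterwards. Alternatives were pseudocounts of 0.1 and 0.01 TPM, minimum means of 1 and 10 TPM, median-ratio scaling, curated or protein-coding transcripts only, and exact versions. 1 marker gene is not reported here. The calculation of differences was checked on simulated folds applied to the DMSO values. This check could not test how transcripts were matched to genes. Python 3.11.15, numpy 2.4.6, pandas 2.3.3 and matplotlib 3.10.9 were used.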

Additional observations from a re-analysis of the deposited data

How the results depend on the processing

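No paired analysis was possible because each condition has 1 library, and no library could be left out. None of the 10 genes passed 2-fold under the 8 alternatives. Of 75 recomputed differences of single genes, 73 moved by less than 0.22 on the log2 scale. That spread was taken from the 16th and 84th percentiles of genes averaging at least 1 TPM. The other 2 were those of TNF, at -0.70 with a pseudocount of 0.1 TPM and -0.82 with 0.01 TPM. Many of the 75 could not move, so their number is no measure of robustness. Minimum means only drop genes, and a gene with a single curated coding transcript is not changed by the choice of transcripts. The number of superfamily genes past 2-fold was 1 with a pseudocount of 0.1 TPM (LTB) and 3 with 0.01 TPM (LTB, CD40LG and CD40), all under 1 TPM, against 0 in the report. Among the signalling lists, 3 genes were past 2-fold in the report, against 4 with 0.01 TPM, which added VCAM1 at under 0.1 TPM, and 2 with a minimum mean of 10 TPM, which left out IL6. With curated transcripts only, NM_001066.3 made up 100% of TNFRSF1B in both libraries, since the other transcripts are predicted. A minimum mean of 10 TPM left 6 of the 10 genes, without TNFRSF1B and LTBR. The unknown read depth limits most the values of TNF, TNFSF10, LTBR and TNFRSF1B, each below 10 TPM in both libraries.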

Other observations

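Of the genes that overlap a superfamily gene and were looked up, ACTA2 was the highest at 22.2 TPM with DMSO and 24.3 TPM with CCA-1.1, followed by RHOBTB2 at 8.32 TPM and 8.06 TPM and LOC254896 at 8 TPM and 6.94 TPM. The read-through gene RTEL1-TNFRSF6B was at 0.88 TPM with DMSO and 0.30 TPM with CCA-1.1, TNFSF12-TNFSF13 was at 0.29 TPM in DMSO and listed at 0 in CCA-1.1, and the antisense gene FAS-AS1 was at 1.05 TPM and 0.35 TPM. TNFRSF6B, a soluble decoy receptor of FASLG that shares exons with the first of these, was at 4.64 TPM and 5.50 TPM. Among the weakly expressed ligands, TNFSF4 was at 0.82 TPM and 0.73 TPM and CD40LG was at 0.03 TPM and listed at 0.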
